A study of Arabidopsis thaliana with 48 samples.

Results

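The 10 genes described here build or export the aliphatic and ferulated part of suberin in the root of Arabidopsis thaliana. They were chosen by locus from the deposited count table: GPAT5, GPAT6, GPAT7, FACT, CYP86A1, CYP86B1, ASFT, FAR4, ABCG6 and ABCG16. All 10 were found, with 1 entry each, among 33715 entries, and all 10 were among the 20995 entries that passed a filter on low counts. All 10 genes were highest in libraries with an endodermal profile, the tissue in which a young root makes suberin. The set was chosen with earlier results of these data known, so these levels are no independent check of its label.

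Suberin is a polyester of glycerol, long-chain fatty acid derivatives and ferulate, laid down with waxes on the inner face of the cell wall. In the young Arabidopsis root it forms lamellae around endodermal cells after these have built the Casparian strip, a lignin band that is placed by the CASP proteins. P450 enzymes hydroxylate the fatty acid chain at its end, reductases make fatty alcohols, glycerol acyltransferases join the chains to glycerol, acyltransferases add ferulate or caffeate, and ABC transporters of the G family are needed to move the products out of the cell.

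Each library was polysome-bound mRNA of roots of 6-day-old plants, pulled down through a FLAG tag on ribosomes that a promoter drives in a chosen tissue. In Col-0 plants the tag was driven by 35S (whole root), pBRN2 (root cap), pGL2 (epidermis), pSCR (endodermis) or pSHR (stele). In bri1-116 plants, mutants of the brassinosteroid receptor BRI1, it was driven by pGL2 or pSCR and BRI1 was restored by a transgene with the pGL2 or pSCR promoter, written pGL2(pGL2BRI1), pGL2(pSCRBRI1) and pSCR(pSCRBRI1), with the tag promoter first. Every line was sampled at 0, 3 and 8 h of 100 nM brassinolide (BL), a brassinosteroid, with 2 libraries per group and 48 in all. Brassinosteroids act through BRI1 on cell elongation and on the timing of differentiation in the root, and the title of the series concerns opposing signals of tissues in the root meristem. No untreated library of 3 or 8 h was analysed here, so BL cannot be told apart from elapsed time and handling. A tag reports only cells where its promoter is active, and in such pull-downs fewer suberizing cells and less mRNA per cell cannot be told apart.

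Total counts were 20556381 to 37685541 per library. Levels are in CPM, counts scaled to library size, and a gene was called higher or lower where the quasi-likelihood test of edgeR gave an adjusted p under 0.05 (Benjamini-Hochberg over all 20995 entries of a comparison). Summed over their lists, stele and root cap markers were highest in the line of their promoter, stele markers at 1531 to 2121 CPM in pSHR against 369 to 503 in 35S and root cap markers at 2347 to 4070 CPM in pBRN2 against 163 to 384 in 35S. Epidermis markers summed to 163 to 411 CPM in pGL2 and 88.1 to 214 CPM in pBRN2. Single markers did not all follow: at 0 h the stele marker WOL was at 16.7 CPM in pSHR, 19.3 in 35S and 47.9 in pGL2, and the epidermis marker WER was at 92.8 CPM in pBRN2 and 57.6 in pGL2. The summed endodermis markers stood at 6972 to 14012 CPM in pSCR, 8036 to 11351 in pSCR(pSCRBRI1), 823 to 1868 in 35S and 69.7 to 740 CPM over pGL2, pSHR and pBRN2. The libraries labelled pGL2(pSCRBRI1) went against their label: the endodermis markers summed to 5395 to 8534 CPM and the epidermis markers to 5.05 to 7.97 CPM, against the higher sums in pGL2. They are called by their label below and read as an endodermal profile. In pGL2(pGL2BRI1), 1 library of each time held endodermis markers: 29.7 percent of the pSCR sum of 0 h in the 0 h library of replicate 2, 14 percent in the 3 h library of replicate 1 and 33 percent in the 8 h library of replicate 2. The other 3 libraries held 1.7 to 2.46 percent.

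The upstream sequences of 4 of the genes are shown because the 10 genes moved together across lines. They carry 3 of the 5 motifs that were searched, on both strands, in the 250 bases before each RefSeq gene start (build TAIR10.1), and they are printed on the strand of the gene with matches in capitals. GPAT5 (chr3:3595444-3595693, plus strand) and GPAT7 (chr5:1834797-1835046, plus strand) hold the ACGTG core of abscisic acid response elements, GPAT7 also holds the AC element ACCNANC bound by MYB factors, GPAT6 (chr2:15955753-15956002, minus strand) holds CGTGTG, a brassinosteroid response element, which overlaps an ACGTG match, and ASFT (chr5:16431054-16431303, plus strand) holds ACCNANC on either strand.
GPAT5: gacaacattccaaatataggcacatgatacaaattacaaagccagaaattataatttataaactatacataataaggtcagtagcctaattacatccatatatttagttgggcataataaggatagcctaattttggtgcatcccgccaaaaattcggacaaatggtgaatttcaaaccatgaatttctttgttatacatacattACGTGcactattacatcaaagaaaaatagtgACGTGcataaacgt
GPAT7: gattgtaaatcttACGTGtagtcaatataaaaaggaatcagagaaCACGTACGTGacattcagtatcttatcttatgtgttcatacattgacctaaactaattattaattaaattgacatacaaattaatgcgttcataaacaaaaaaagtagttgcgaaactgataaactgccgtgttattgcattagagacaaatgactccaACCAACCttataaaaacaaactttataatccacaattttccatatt
GPAT6: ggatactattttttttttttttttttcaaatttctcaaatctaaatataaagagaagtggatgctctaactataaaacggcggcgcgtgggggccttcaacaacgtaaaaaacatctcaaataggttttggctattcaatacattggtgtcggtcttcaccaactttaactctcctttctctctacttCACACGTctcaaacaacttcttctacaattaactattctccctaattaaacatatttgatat
ASFT: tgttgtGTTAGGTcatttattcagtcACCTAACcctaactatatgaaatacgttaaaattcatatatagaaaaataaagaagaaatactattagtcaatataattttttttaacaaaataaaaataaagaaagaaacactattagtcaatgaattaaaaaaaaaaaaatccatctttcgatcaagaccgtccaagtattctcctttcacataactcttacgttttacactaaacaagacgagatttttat
Among the 10 windows, CGTGTG was found in 1 (GPAT6) and in 5.37 percent of 27443 windows of all genes. The other brassinosteroid element, CGTGCG, was found in 0 of the 10 and in 1.57 percent of all windows, and the G-box CACGTG, which contains ACGTG, in 0 of the 10 and in 6.49 percent of all. ACGTG was found in 4 of the 10 (GPAT5, GPAT6, GPAT7 and FAR4) and in 22.9 percent of all windows. ACCNANC was found in 5 of the 10 (GPAT7, CYP86B1, ASFT, ABCG6 and ABCG16) and in 27.8 percent of all. A match is a run of letters and not a shown binding site.

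At 0 h all 10 genes were higher in pSCR than in the whole root (35S), where 12.4 percent of all tested genes were higher and 22 percent lower. Their log2 differences ran from 3.30 to 4.45 with a median of 3.97, against a median of -0.05 over all tested genes. Taken over all 3 times, the 10 genes summed to 2003 to 4138 CPM in the 6 pSCR libraries and to 218 to 404 CPM in the 6 35S libraries. In the 18 libraries of pSHR, pGL2 and pBRN2 they summed to 25.1 to 99.1 CPM. A remark on trimming of 51-base reads is on all pSCR and no 35S libraries. With this remark as a term of the fit, all 10 were also higher, by 4.39 to 5.73 on the log2 scale. Only lines that hold libraries with and without the remark inform that term. Among these lines is pGL2(pGL2BRI1), where the libraries without the remark are those with endodermis markers. The term therefore cannot separate the remark from tissue content.

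**Figure D1:**
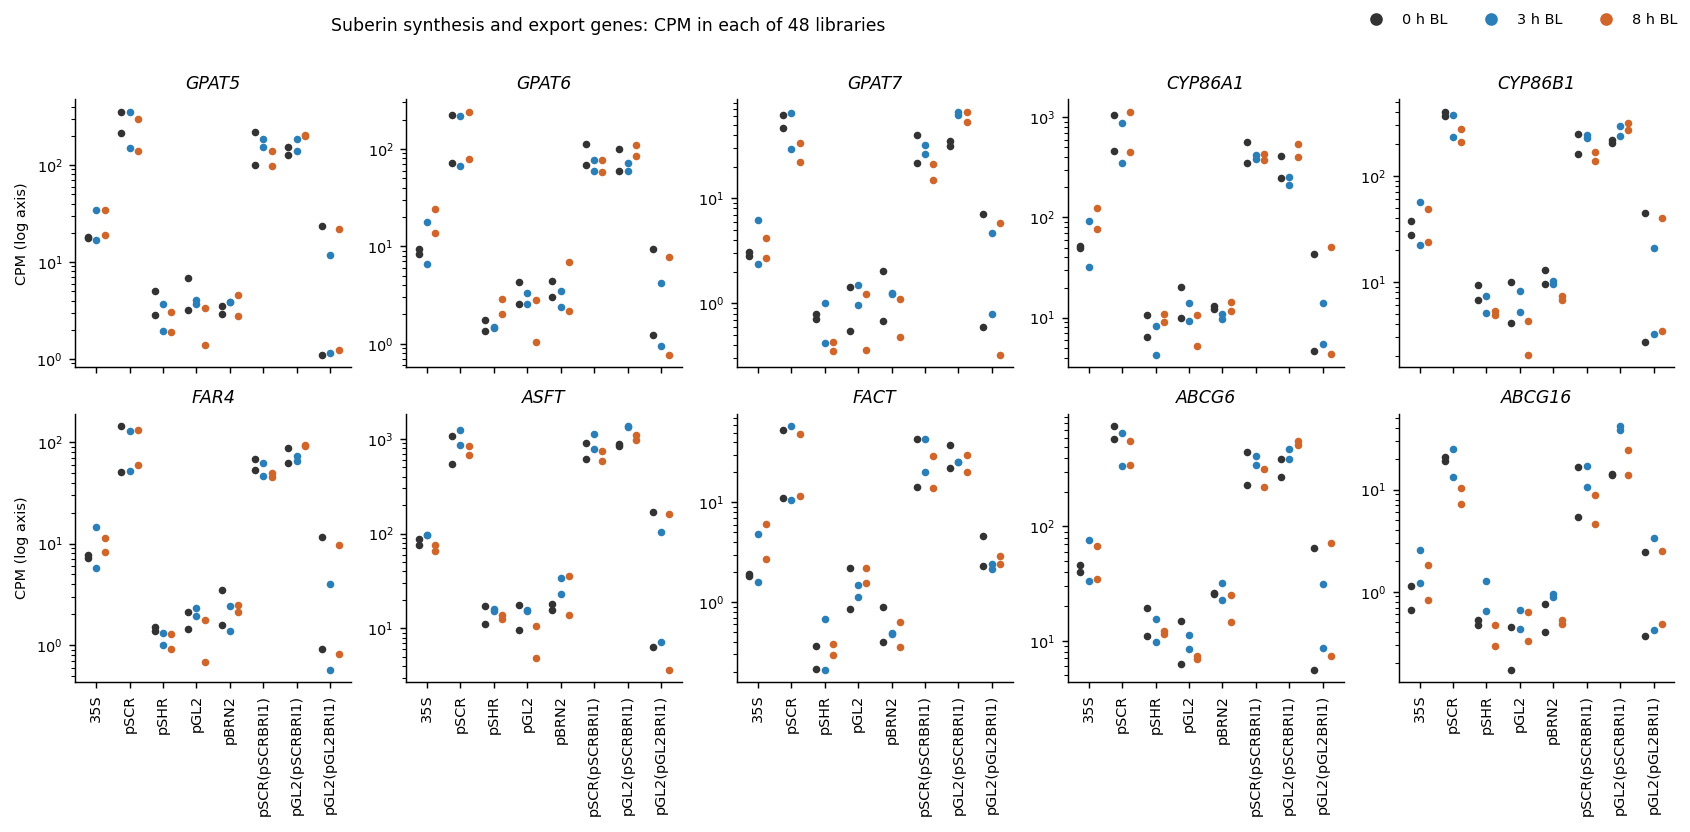
CPM of each of the 10 suberin genes (log axis) in each of 48 libraries, by line and by time in BL (colour); each point is 1 library. The 3 lines with an endodermal profile stand above all others, and the pGL2(pGL2BRI1) libraries split in each panel except that of FACT into high and low ones.

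GPAT5 (AT3G11430, chromosome 3, 3595765 to 3597952, TAIR10, plus strand, 2 exons) encodes the glycerol acyltransferase whose loss strongly reduces suberin in roots and seed coats. It stood at 355 and 212 CPM in the 2 pSCR libraries of 0 h and at 17.9 and 17.7 CPM in 35S, a log2 difference of 3.99 ± 0.999 (SE; edgeR adjusted p = 0.00237). In pSHR, pGL2 and pBRN2 the 18 libraries of all times ran from 1.4 to 6.84 CPM with a median of 3.44. GPAT6 (AT2G38110, chromosome 2, 15952607 to 15955494, minus strand), an acyltransferase best known from floral cutin, stood at 224 and 71.8 CPM in pSCR and at 8.34 and 9.37 CPM in 35S, a log2 difference of 4.06 ± 0.879 (edgeR adjusted p = 0.000558). The pSCR libraries of GPAT6 thus differed 3.12-fold from each other and did not overlap 35S. GPAT7 (AT5G06090, chromosome 5, 1835106 to 1836722, plus strand), a close relative of GPAT5, was lower in level, at 62 and 46.2 CPM in pSCR against 3.1 and 2.85 CPM in 35S, with a log2 difference of 4.18 ± 0.859 (edgeR adjusted p = 0.00032). Per kilobase of exon, the pSCR means at 0 h were 142 ± 50.4 CPM for GPAT5, 66.8 ± 48.6 for GPAT6 and 28.8 ± 5.95 for GPAT7 (SD, n = 2).

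CYP86A1 (AT5G58860, chromosome 5, 23765814 to 23768049, minus strand) encodes the P450 that hydroxylates the end of long-chain fatty acids for root suberin. It stood at 1052 and 456 CPM in pSCR at 0 h and at 52.3 and 49.1 CPM in 35S, a log2 difference of 3.89 ± 0.875 (edgeR adjusted p = 0.000838). CYP86B1 (AT5G23190, chromosome 5, 7803141 to 7805815, minus strand), the P450 of the very-long-chain fatty acids, stood at 405 and 365 CPM in pSCR and at 37.9 and 27.5 CPM in 35S, a log2 difference of 3.56 ± 0.892 (edgeR adjusted p = 0.00243). The pSCR libraries of CYP86B1 were close together and those of CYP86A1 were not, at ratios of 1.11 and 2.31. FAR4 (AT3G44540, chromosome 3, 16124021 to 16127882, plus strand, 10 exons), a fatty acyl reductase that makes the primary alcohols of suberin, stood at 143 and 50.9 CPM in pSCR and at 7.28 and 7.8 CPM in 35S, a log2 difference of 3.68 ± 0.844 (edgeR adjusted p = 0.00102). Its neighbour on the same strand, 9545 bases away, is the reductase gene FAR5, which is no member.

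ASFT (AT5G41040, chromosome 5, 16431374 to 16433305, plus strand, 4 exons) encodes the enzyme that puts ferulate on suberin. Per kilobase of exon it was the most abundant of the 10 in pSCR at 0 h, at 442 ± 207 CPM (SD, n = 2), followed by CYP86A1 at 405 ± 226 and ABCG6 at 265 ± 48.4, and the replicates do not separate these 3. It stood at 1073 and 539 CPM in pSCR and at 75.5 and 87.6 CPM in 35S, a log2 difference of 3.30 ± 1.09 (edgeR adjusted p = 0.0196). The call was lost with 1 library fewer, at log2 differences of 2.72 without replicate 1 of pSCR (edgeR adjusted p = 0.0995), 3.2 without replicate 1 of 35S (adjusted p = 0.121) and 3.41 without replicate 2 of 35S (adjusted p = 0.101). ASFT overlaps AT5G41050 on the other strand by 63 bases, and the kit does not mark strand; AT5G41050 stood at 10.2 and 6.96 CPM in the same pSCR libraries. FACT (AT5G63560, chromosome 5, 25449481 to 25451414, plus strand), which joins caffeate to fatty alcohols of suberin-associated waxes, stood at 53.4 and 11.1 CPM in pSCR and at 1.83 and 1.91 CPM in 35S. Its log2 difference was 4.11 ± 0.836 (edgeR adjusted p = 0.000284), with the widest gap between the pSCR replicates of the 10 genes, 4.81-fold.

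ABCG6 (AT5G13580, chromosome 5, 4370692 to 4373201, plus strand, 1 exon) is an ABC transporter gene needed, with ABCG2 and ABCG20, for a tight suberin barrier in roots. It stood at 751 and 579 CPM in pSCR at 0 h and at 46.2 and 39.9 CPM in 35S, a log2 difference of 3.95 ± 0.854 (edgeR adjusted p = 0.000555). ABCG16 (AT3G55090, chromosome 3, 20416342 to 20418552, minus strand, 1 exon), known with ABCG1 from the pollen wall, was the least abundant of the 10 per kilobase, at 7.35 ± 0.422 CPM (SD, n = 2). It stood at 20.9 and 19.2 CPM in pSCR and at 1.15 and 0.658 CPM in 35S, and had both the largest log2 difference of the 10 and the smallest SE, 4.45 ± 0.757 (edgeR adjusted p = 2.73e-05). By summed CPM, ASFT, CYP86A1 and ABCG6 made up 24.8, 23.2 and 20.5 percent of the 10 genes in pSCR at 0 h, and ABCG16 made up 0.62 percent.

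**Figure D2:**
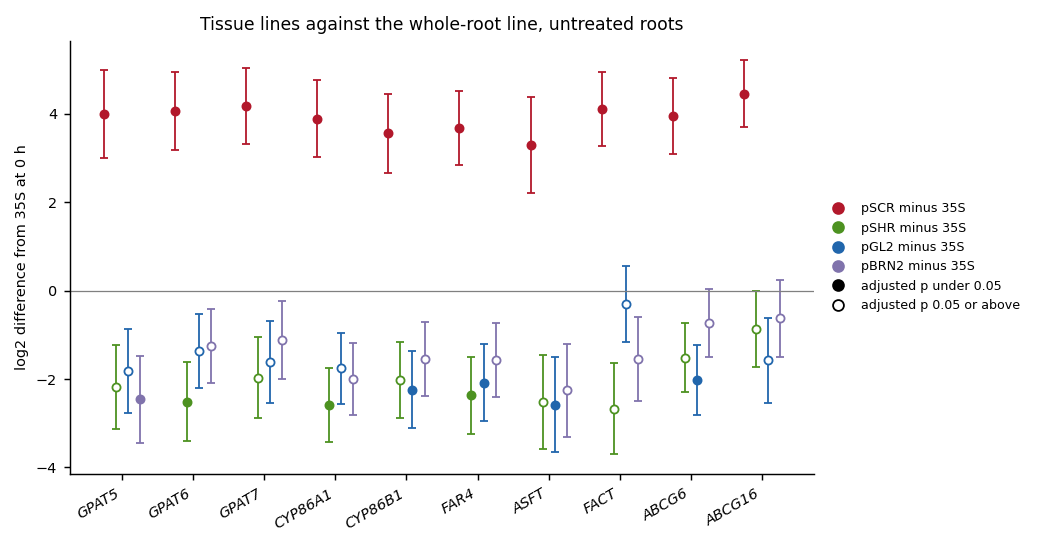
Log2 difference of each gene between a tissue line and the whole-root line 35S at 0 h (points; bars are SE; filled where the edgeR adjusted p was under 0.05). All 10 pSCR points lie between 3.30 and 4.45, and the points of pSHR, pGL2 and pBRN2 lie below 0.

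Against pSCR, all 10 genes were lower in pSHR, in pGL2 and in pBRN2, where 19.9, 21.2 and 25.8 percent of all tested genes were lower. The median log2 differences were -6.10, -5.79 and -5.31. The same 10 calls were made with any 1 of the libraries compared left out. GPAT5 in the stele line pSHR was at 5 and 2.83 CPM, a log2 difference from pSCR of -6.17 ± 1.12 (edgeR adjusted p = 5.57e-05). FACT in pSHR was at 0.359 and 0.215 CPM, from 13 and 7 reads, and ABCG16 in pGL2 was at 0.172 and 0.451 CPM, from 5 and 11 reads. These comparisons share the pSCR libraries, so their calls are not independent. The remark on trimmed reads is on all pSCR libraries and on no library of pSHR or pBRN2. In those comparisons the remark and the line cannot be told apart.

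Against the whole root the lower levels were less clear. In pSHR 3 of 10 genes were called lower (18.9 percent of all tested genes were): GPAT6 at 1.74 and 1.35 CPM, CYP86A1 at 10.6 and 6.34 CPM and FAR4 at 1.52 and 1.39 CPM, with edgeR adjusted p of 0.0359, 0.0217 and 0.0435. In pGL2 4 of 10 were called lower (25.9 percent of all): CYP86B1, ASFT, FAR4 and ABCG6, at log2 differences of -2.24, -2.58, -2.08 and -2.02 and edgeR adjusted p of 0.0342, 0.0479, 0.0495 and 0.0387. In pBRN2 1 of 10 was called lower (22.9 percent of all), GPAT5 at 3.51 and 2.93 CPM (edgeR adjusted p = 0.0458). All 30 log2 differences were below 0, and the replicates of the groups did not overlap except for FACT in pGL2 and ABCG16 in pBRN2. Of all tested genes, 36.8, 44.6 and 43 percent lay below 35S without overlap in pSHR, pGL2 and pBRN2. The calls did not hold with 1 library fewer: without any 1 of the 4 libraries compared, none was made in pSHR or pBRN2, and in pGL2 none without either 35S library or replicate 1 of pGL2, and 2, CYP86B1 and ABCG6, without its replicate 2.

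Ordered by mean CPM at 0 h, the 3 lines with an endodermal profile were at the top for all 10 genes, with pSCR first for 9 and the libraries labelled pGL2(pSCRBRI1) first for ASFT. The step from the lowest of these 3 lines to the next, either 35S or pGL2(pGL2BRI1), was free of overlap between replicates for 10 of 10 genes; over all tested genes, the same step in each gene's own order of lines was free of overlap for 34.2 percent. The step from the second to the next line was not for any gene, and the step from the first to the second was for 4 (GPAT7, CYP86B1, ABCG6 and ABCG16), against 38.9 and 51.5 percent of all tested genes. Below 35S and pGL2(pGL2BRI1), the order of pGL2, pBRN2 and pSHR changed from gene to gene. Over all 7 steps, 24 of 70 neighbouring pairs did not overlap, close to the 35.5 percent of such pairs over all tested genes.

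The whole-root line held the genes at a small part of their pSCR level. At 0 h the 10 genes summed to 251 and 244 CPM in 35S, which is 7.75 and 7.53 percent of the pSCR mean. Summed endodermis markers in the same libraries stood at 14.5 and 12.2 percent of pSCR. Summed over the 10 genes, all 6 libraries of pSHR gave 40 to 66.4 CPM, those of pGL2 25.1 to 80.2 CPM and those of pBRN2 65.7 to 99.1 CPM. The endodermis markers in those lines were at 3.06 to 6.43, 0.935 to 2.35 and 4.55 to 9.92 percent of pSCR at 0 h, and their part in these low suberin levels was not tested.

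After BL no member passed in any line at 3 or 8 h. The background was low as well: 0.0429 and 0.0667 percent of all tested genes changed in either direction in pSCR at 3 and 8 h, 0.31 and 0.429 percent in 35S, 0.915 and 1.12 percent in pBRN2, 0.981 and 3.87 percent in pGL2 and 0.0191 percent in pSHR at both times. It was 2.72 and 1.39 percent in pGL2(pGL2BRI1), 0.224 and 0.11 percent in the libraries labelled pGL2(pSCRBRI1), and 0 percent in pSCR(pSCRBRI1) by edgeR, where 925 and 528 genes had an unadjusted p under 0.05 and DESeq2 called 19 and 8. By DESeq2 0 members passed in each line and time. Over the 16 comparisons only 1 of the 160 edgeR tests of a member had an unadjusted p under 0.05. These tests use a spread shared by all groups, which includes the pGL2(pGL2BRI1) libraries with and without endodermis markers. The lack of calls therefore does not show that the genes were unchanged.

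In pSCR the median log2 change of the 10 genes was -0.14 at 3 h and -0.23 at 8 h, against 0 and -0.01 over all tested genes. ABCG16, the exporter with the lowest level, stood at 20.9 and 19.2 CPM at 0 h, 25.3 and 13.4 CPM at 3 h and 10.4 and 7.23 CPM at 8 h. Its 8 h libraries lay below both 0 h libraries, with a log2 change of -1.18 (95% interval -2.48 to 0.13, edgeR adjusted p = 0.756). GPAT7 stood at 62 and 46.2 CPM at 0 h, 65 and 29.5 CPM at 3 h and 33.6 and 22 CPM at 8 h, and again the 8 h libraries lay below those of 0 h (log2 change -0.96, interval -2.49 to 0.58, edgeR adjusted p = 0.87). CYP86B1 and ABCG6 also had 8 h libraries that did not reach those of 0 h, at log2 changes of -0.66 and -0.56 (edgeR adjusted p = 0.941 and 0.955). These 4 of 10 genes stand beside 14.7 percent of all tested genes whose 8 h libraries lay below those of 0 h. The other 6 genes overlapped between 0 and 8 h. The P450 gene CYP86A1, for one, stood at 1052 and 456 CPM at 0 h, 885 and 347 CPM at 3 h and 1139 and 452 CPM at 8 h. Its log2 change at 8 h was 0.08, with an interval of -1.52 to 1.67. Changes within that interval were not detectable with this fit, whose spread is shared by all groups.

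The libraries with the label pGL2(pSCRBRI1) held ABCG16 at 14.4 and 13.8 CPM at 0 h, 38.5 and 41.7 CPM at 3 h and 13.8 and 24.5 CPM at 8 h. The 3 h libraries lay above all others of the line, and this was the member test with an unadjusted p under 0.05 (log2 change 1.51, interval 0.21 to 2.80, edgeR adjusted p = 0.827). GPAT7 moved in the same libraries from 35.2 and 31.7 CPM to 61.9 and 65.5 CPM at 3 h and 52.7 and 66.7 CPM at 8 h, at log2 changes of 0.93 and 0.83 that did not pass (edgeR adjusted p = 1 for each). In pSCR(pSCRBRI1) the same exporter ABCG16 stood at 5.36 and 16.5 CPM, 10.7 and 17.2 CPM and 4.64 and 8.92 CPM at 0, 3 and 8 h, with overlap at both steps. All 10 log2 changes of this line were below 0 at 8 h, from -0.76 to -0.18, and none passed. From 0 to 8 h the sum of the 10 genes changed 1.22-fold and 1.48-fold in replicates 1 and 2 labelled pGL2(pSCRBRI1). The sum changed 0.863-fold and 0.852-fold in pSCR and 0.96-fold and 0.749-fold in pSCR(pSCRBRI1). These changes of the sum were not tested.

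**Figure D3:**
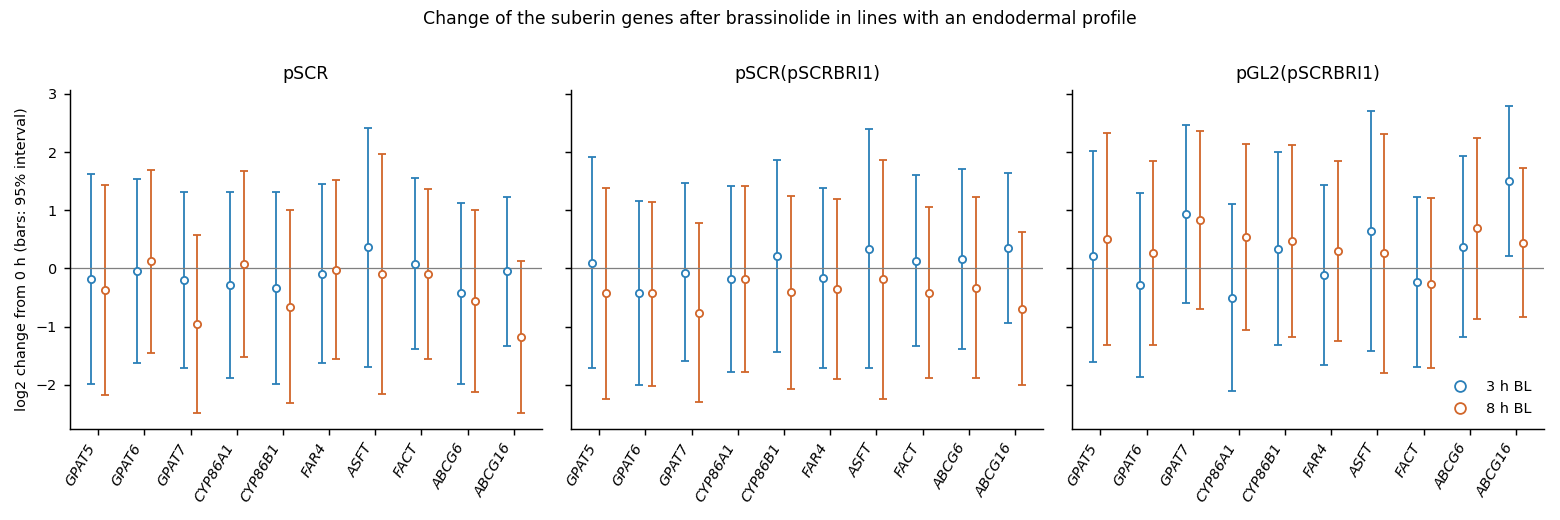
Log2 change of each gene from 0 h to 3 h or 8 h of BL (points; bars are 95% intervals of the edgeR fit) in the 3 lines with an endodermal profile. None of the 60 changes passed, and the interval lies clear of 0 for ABCG16 at 3 h in the libraries labelled pGL2(pSCRBRI1).

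Whole roots held CYP86A1 at 52.3 and 49.1 CPM at 0 h, 92.2 and 31.7 CPM at 3 h and 77.4 and 125 CPM at 8 h. GPAT6 stood at 8.34 and 9.37, 17.7 and 6.58, and 13.8 and 24.1 CPM, and FACT at 1.83 and 1.91, 4.84 and 1.58, and 2.69 and 6.05 CPM at the same times. For these 3 genes, and for GPAT5 and FAR4, the 8 h libraries lay above those of 0 h, which was so for 25.6 percent of all tested genes. The log2 changes of the 3 were 1.00, 1.10 and 1.22, and none passed (edgeR adjusted p of 0.688, 0.658 and 0.612). ASFT did not follow them, with 75.5 and 87.6 CPM at 0 h and 76.2 and 65.5 CPM at 8 h. Tested as a difference of responses between all 28 pairs of lines at both times, an analysis added after the data were seen, 0 of 560 edgeR tests of a member passed and 0 had an unadjusted p under 0.05. With the same shared spread, these counts do not show that the responses of the lines were equal.

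The line pSCR(pSCRBRI1), bri1-116 with BRI1 restored under pSCR, was compared with the Col-0 line pSCR. No bri1-116 line without a BRI1 transgene was analysed here, so the effect of restoring BRI1 cannot be read from this comparison. No member passed at 0, 3 or 8 h by edgeR or DESeq2, and none had an unadjusted p under 0.05, where 2.99, 2.01 and 2.02 percent of all tested genes changed in either direction. The 10 log2 differences were all below 0 at each time, with medians of -0.77, -0.51 and -0.70 against -0.01, 0 and 0 over all tested genes. At 0 h the acyltransferase gene GPAT5 stood at 101 and 217 CPM against 355 and 212, and the exporter gene ABCG6 at 232 and 447 CPM against 751 and 579 CPM. ABCG6 did not overlap and had the largest difference at that time, -0.97 (95% interval -2.54 to 0.60, edgeR adjusted p = 0.581). ASFT was the most alike, at 612 and 902 CPM against 1073 and 539 CPM. The groups did not overlap, with pSCR(pSCRBRI1) the lower, for 4 of 10 genes at 0 h, 0 at 3 h and 7 at 8 h, and for 19.1, 21.3 and 20.3 percent of all tested genes at these times. Among the 7 was GPAT6 at 57.8 and 76.6 CPM against 241 and 79.5 CPM. Replicate 1 of pSCR stood above replicate 2 for all 10 genes at all 3 times, and replicate 2 of pSCR(pSCRBRI1) above replicate 1 likewise. In pSCR(pSCRBRI1) replicate 1 carries the remark on trimmed reads, as all pSCR libraries do, and replicate 2 lacks it. Remark and replicate cannot be told apart in this line.

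The libraries labelled pGL2(pSCRBRI1) held all 10 genes above pGL2 (22.8 percent of all tested genes were higher), at log2 differences of 4.30 to 5.98. ASFT, the feruloyl transferase gene, stood at 843 and 875 CPM against 9.59 and 17.7 CPM, and ABCG16 at 14.4 and 13.8 CPM against 0.172 and 0.451 CPM. Because these libraries carry the markers of the endodermis and not of the epidermis, tissue profile and genotype cannot be told apart in this difference. Against pSCR no member passed (0.972 percent of all tested genes changed), with a median log2 difference of -0.78, and against pSCR(pSCRBRI1) none passed (3.68 percent changed), with a median of 0.05. By edgeR and DESeq2 alike 0 members passed in both, and none had an unadjusted p under 0.05.

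In pGL2(pGL2BRI1) the members divided the libraries as the endodermis markers did. Their sum was 380, 199 and 375 CPM in the 3 libraries with endodermis markers at 0, 3 and 8 h, and 25.8, 30.6 and 24.8 CPM in the other library of each time. The 3 libraries with high sums are the 3 of the line that lack the remark on trimmed reads. Against pGL2 at 0 h, 0 of 10 passed (11.4 percent of all tested genes changed), 6 had an unadjusted p under 0.05 and 0 passed by DESeq2. The log2 difference of ASFT was 2.68 ± 1.08 (edgeR adjusted p = 0.108), from 6.31 and 168 CPM against 9.59 and 17.7 CPM. Without replicate 1 it was 3.62 (adjusted p = 0.0272) and 5 genes passed, GPAT7, CYP86B1, ASFT, FAR4 and ABCG6. Without replicate 2 it was -1.11 (adjusted p = 0.627) and none passed, so 1 library decides the sign. FACT was also higher in the library with endodermis markers at each time, but by less. It stood there at 4.57 against 2.33 CPM at 0 h, 2.42 against 2.13 CPM at 3 h and 2.87 against 2.42 CPM at 8 h. Taken over all times, its libraries were not clearly divided into high and low ones.

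Within pSCR the suberin genes and the Casparian strip genes did not move together. The 10 genes summed to 4138 and 2350 CPM at 0 h, 3989 and 2092 CPM at 3 h and 3573 and 2003 CPM at 8 h in replicates 1 and 2. CASP1 to CASP5, the scaffold proteins of the Casparian strip, summed to 5528 and 6869 CPM, 7315 and 8532 CPM, and 10536 and 11947 CPM in the same order. Replicate 1 was thus the higher at each time for the suberin genes and the lower for the CASP genes. From 0 to 8 h the suberin sum changed 0.863-fold and 0.852-fold and the CASP sum 1.91-fold and 1.74-fold within the replicates. The ratio of the sums was 0.749 and 0.342 at 0 h and 0.339 and 0.168 at 8 h. None of the 5 CASP genes passed in pSCR at 8 h; CASP5 had the largest log2 change, 1.35 (edgeR adjusted p = 0.796).

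The same ratio at 8 h was 0.741 and 0.588 times that of 0 h in pSCR(pSCRBRI1) and 0.912 and 0.946 times in the libraries labelled pGL2(pSCRBRI1). Over all lines the ratio was lower at 8 h than at 0 h in 14 of 16 line replicates. The exceptions were replicate 2 of 35S (1.19 times) and of pBRN2 (1.02 times). The CASP sum was higher at 8 h in 16 of 16 and the suberin sum in 7 of 16. Replicate numbers did not pair libraries across times in 35S, pGL2, pSHR and pGL2(pGL2BRI1), so the match there is arbitrary. Over all lines and times, the replicate with the higher suberin sum had the lower CASP sum in 14 of 24 pairs, from 3 of 3 in pSCR and pSHR to 0 of 3 in pGL2(pGL2BRI1). Such a count is near the even split that unrelated sums would give. In 35S the library with the higher suberin sum had the lower CASP sum at 3 h (404 against 218 CPM, and 709 against 1035 CPM) and at 8 h (388 against 259 CPM, and 990 against 1639 CPM). At 0 h it had the higher CASP sum (251 against 244 CPM, and 906 against 743 CPM). The ratio was chosen for display after the values were seen and has no test. Root zones along the axis were not separated in these samples, and their part in the ratio was not tested.

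**Figure D4:**
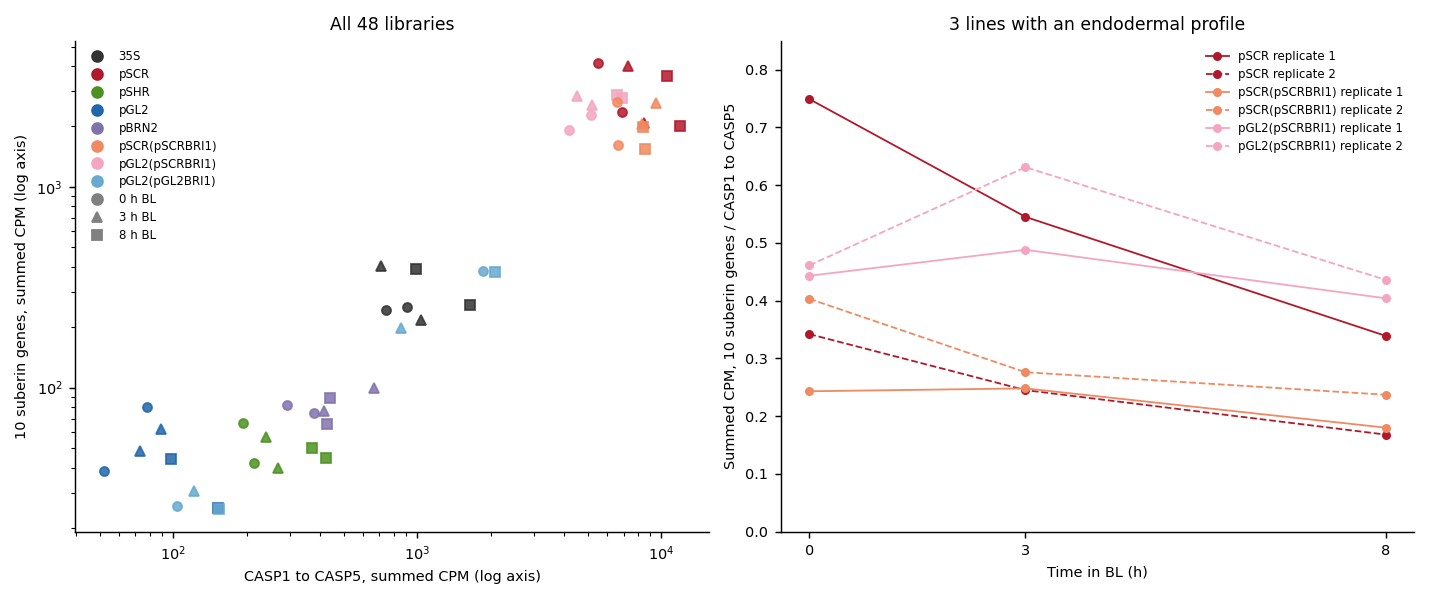
Left, summed CPM of the 10 suberin genes against that of CASP1 to CASP5 in each of 48 libraries (log axes; colour is the line, marker the time). Right, the ratio of these sums over time in each replicate of the 3 lines with an endodermal profile; in pSCR it was 0.749 at 0 h and 0.339 at 8 h in replicate 1, and 0.342 and 0.168 in replicate 2.

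Across the means of the 24 groups, the log2 CPM of the 10 genes correlated pairwise at 0.911 to 0.996 with a median of 0.979 over 45 pairs. Within the 9 groups with an endodermal profile the correlations ran from -0.544 to 0.975 with a median of 0.461. Both are descriptions over means of libraries that share preparation and scaling. The 5 other genes most like the mean pattern of the 10, by Pearson correlation over the 24 groups among 14462 candidates, were GPAT4 (0.9977), AT1G68850 (0.9976), AT5G12420 (0.9973), PELPK1 (0.9970) and AT1G74460 (0.9958). GPAT4, an acyltransferase known from leaf cutin, stood at a mean of 609 CPM in pSCR, 42 in 35S and 10.5 in pSHR at 0 h. RefSeq describes AT1G68850 as a peroxidase, AT5G12420 as a WSD1-like acyltransferase and AT1G74460 as a GDSL-like lipase, and their pSCR means were 311, 754 and 1780 CPM.

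The rest of the suberin pathway was largely higher in pSCR too. At 0 h 12.4 percent of all tested genes were higher in pSCR than in 35S and 22 percent lower. Of 6 other synthesis genes 6 were higher than in 35S, at a median log2 difference of 3.60. Among them were KCS2, an elongase of very-long-chain fatty acids, at 273 against 19.1 CPM, the reductase genes FAR5 and FAR1 at 134 against 9.52 and 16.5 against 1.36 CPM, and LACS2, an acyl-CoA synthetase gene, at 200 against 16.7 CPM. Of 9 regulators 8 were higher, with MYB67, MYB41, MYB53 and MYB9 at log2 differences of 3.92, 3.79, 3.37 and 3.33, and 1, NAC046, was lower at -3.11 (edgeR adjusted p = 3.2e-09). MYB41 and MYB53 are factors that can switch on suberin genes when overexpressed.

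Of 10 other export and polymerization genes 6 were higher and 1 was lower, beside 12.4 percent higher and 22 percent lower of all tested genes. The higher ones with the largest differences were AT5G37690 (4.01), the exporter gene ABCG2 (4.00), AT1G74460 (3.77) and AT2G23540 (3.77), and the lower one was AT2G19050 (-2.61), at 0.215 against 1.36 CPM. ABCG1, which acts with ABCG16 in pollen, did not follow it: it stood at 10.6 CPM in pSCR, 15.5 in 35S and 87.8 in pBRN2, where it was higher than in 35S at a log2 difference of 2.50 (edgeR adjusted p = 6.19e-07; 18.1 percent of all tested genes were higher there). ABCG1 was also the 1 gene of these pathway lists to rise after BL in a line with an endodermal profile, from 6.58 to 25.8 CPM at 3 h in the libraries labelled pGL2(pSCRBRI1) (log2 change 1.96 ± 0.325, edgeR adjusted p = 0.00282).

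Of 6 genes at the entry of the phenylpropanoid pathway, which supplies ferulate, 3 were higher in pSCR than in 35S. They were PAL4 (2.46), 4CL1 (1.69) and PAL2 (1.56), at a median of 1.39 for the list. In the same comparison 12.4 percent of all tested genes were higher. Of 12 relatives best known from cutin 10 were tested and 7 were higher, with GPAT4 (3.86), CYP86A4 (3.67), CYP86A8 (3.67) and ABCG32 (3.41) the largest. In pSHR against 35S, 2 of 6 other synthesis genes, 7 of 10 export and polymerization genes and 5 of 9 regulators were lower. No gene of these 3 lists was higher. Of all tested genes, 18.9 percent were lower there and 7.73 percent higher. The means of PAL1, PAL4, C4H, 4CL1 and 4CL2 at 0 h were higher in pSHR than in 35S. PAL1 stood at 463 against 294 CPM and PAL4 at 70.2 against 27.7 CPM. PAL2 was the lower one, at 119 against 147 CPM. In pGL2 23 percent of all tested genes were higher and 25.9 percent lower. The counts for the same lists, in the same order, were 1 higher and 1 lower, 4 higher and 3 lower, and 1 higher and 5 lower. KCS20, an elongase gene also used for waxes, was the higher synthesis gene there, at 85.1 against 32.1 CPM (log2 difference 1.41 ± 0.375, edgeR adjusted p = 0.00271). LACS1, an acyl-CoA synthetase gene of wax and cutin, rose after BL in pGL2, from 6.23 to 16.3 CPM at 8 h (log2 change 1.38 ± 0.269, edgeR adjusted p = 0.00286).

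**Figure D5:**
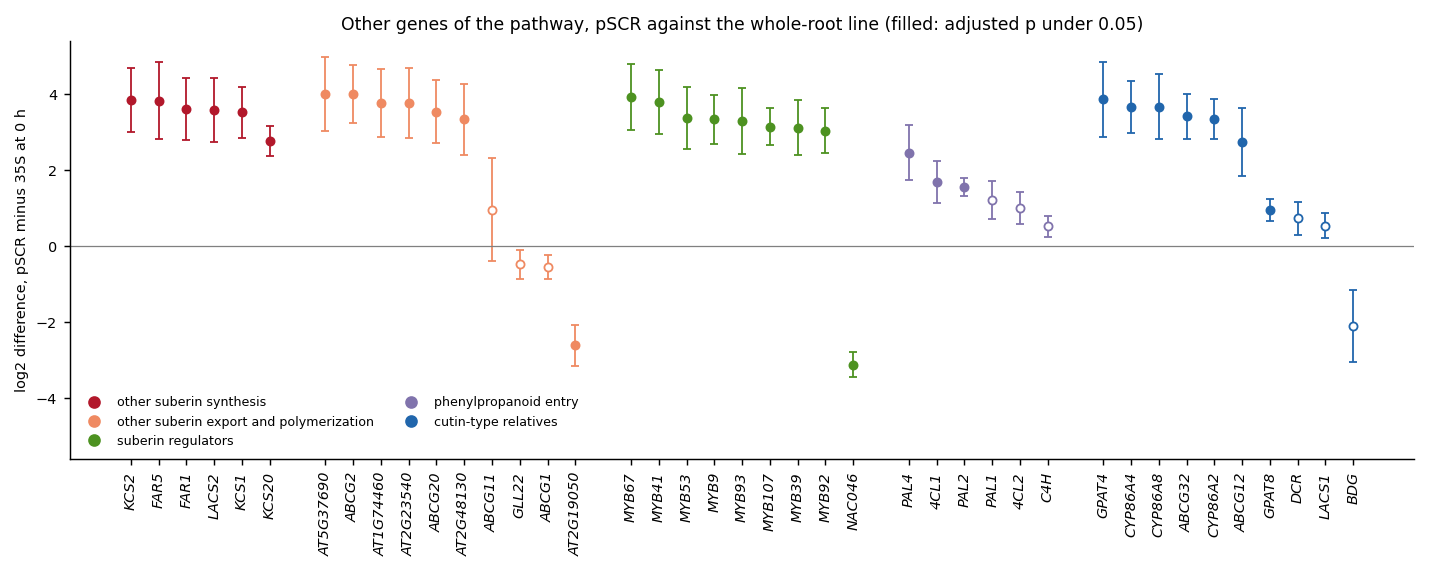
Log2 difference between pSCR and 35S at 0 h for the tested genes of 5 lists of the wider pathway (points; bars are SE; filled where the edgeR adjusted p was under 0.05; genes without a symbol in the RefSeq table are given by locus). The other synthesis genes and 8 of 9 regulators lie between 2.76 and 3.92.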

How the data were processed

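The authors deposited whole-number read counts per gene for 48 libraries, not normalized. Libraries were made with TruSeq RNA v2 (per the labels' protocols) and sequenced as 50 bp single-end reads; 21 libraries carry a remark on 51 bases before trimming. The submitters' processing notes name FastQC 0.10.1, TopHat2 2.0.9, HTSeq 0.5.3p3 and the build TAIR10. Counts were filtered with filterByExpr, scaled with TMM and tested with the quasi-likelihood test of edgeR 4.0.16 (R 4.3.3, robust, 1 mean per group, all 48 libraries), after a test on simulated data. Leave-one-out fits kept the dispersion trend of all libraries. The members and lists were chosen with earlier results of these data known, and genes of a list were named by size of change, at most 4 per comparison, with exceptions chosen after their values were seen: NAC046, AT2G19050, ABCG1 and KCS20. Replicates are described as biological repetitions. For each gene the p-values rest on 1 estimate of the spread between replicates, shared by all groups and not taken from the compared groups alone. The divided libraries of pGL2(pGL2BRI1) are part of that estimate. Replicate numbers paired libraries across times in 4 of 8 lines (pSCR, pSCR(pSCRBRI1), pGL2(pSCRBRI1) and pBRN2; every correlation of deviations over 0.1) and not between lines (-0.32 to 0.17). CPM per kilobase used RefSeq exon lengths. Alternatives were RLE scaling, no filter, DESeq2 1.42.0, the compared groups alone, replicate blocks, the trimming remark as a term and libraries left out.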

Additional observations from a re-analysis of the deposited data

How the results depend on the processing

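The 10 higher calls in pSCR against 35S, and the 10 lower calls of pSHR, pGL2 and pBRN2 against pSCR, were made under every alternative run, except that leaving out 1 library gave 9 to 10 in the first (ASFT). The few lower calls against 35S were not stable, and the cause was not tested. In pSHR (3 members) there were 4 with the replicate block within line, 1 with no filter and 1 without the 6 libraries labelled pGL2(pSCRBRI1), 5 by DESeq2 and 9 with the compared groups alone. In pGL2 (4) there were 2 with RLE scaling, 2 with the replicate block and 2 with the block within line, 0 with no filter, 0 with the trimming term, 0 without the labelled libraries and 9 with the compared groups alone. In pBRN2 (1) there were 0 with RLE, 0 with no filter, 0 with the replicate block and 0 without the labelled libraries, 2 with the block within line, 2 with the trimming term, 2 by DESeq2 and 8 with the compared groups alone. Leaving out 1 library gave 0 to 0 members in pSHR, 0 to 2 in pGL2, 0 to 0 in pBRN2 and 0 to 5 in pGL2(pGL2BRI1) against pGL2. After BL and in the other comparisons, the replicate block and the block within line left the counts of members as they were, at 0 after BL. With crossed numbers, chosen after seeing the data, it called 2 members in 35S and 1 in pGL2(pGL2BRI1). With the compared groups alone 1 member, ABCG16 at 3 h, passed in pGL2(pSCRBRI1). Of the log2 values that passed, none changed sign under an alternative, and of those that did not pass, 271 of 3254 did, among them ASFT in pGL2(pGL2BRI1) against pGL2 (2.68, and -1.11 without replicate 2). Each locus had 1 entry, so summing entries could not differ. With 2 libraries per group, the 95% interval of a BL change in pSCR at 8 h ran from -2.48 to 0.13 for ABCG16 and from -2.15 to 1.96 for ASFT.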
